A study of Mus musculus with 15 samples.

Results

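Cxcl1, Cxcl2 and Cxcl3 are 3 neighbouring mouse genes that encode closely related CXC chemokines, the secreted proteins that bind the receptor Cxcr2 and draw neutrophils from the blood into inflamed tissue. They were chosen by name, as 3 of 55450 annotated genes, and all crosslink sites on their own strand were collected from the 6 deposited site lists. These lists held 162273 sites in all, of which 459 lay in Cxcl2 and 0 lay in Cxcl1 or Cxcl3.

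The sites came from iCLIP, a method in which UV light fixes a protein to the RNA it touches and the first nucleotide missing from the cDNA marks the contact. The protein was tristetraprolin (TTP, encoded by Zfp36) fused to GFP, either as wild-type GFP-TTP or as GFP-TTP-AA, in which alanines replace the 2 serines that the kinase MK2 phosphorylates. Both were expressed from a doxycycline-inducible retroviral vector that carries only the coding sequence, in immortalised bone marrow-derived macrophages from TTP-deficient C57BL/6 mice, so that no group held endogenous TTP and every group had received 1 µg/ml doxycycline for 6 h. Cells were lysed without lipopolysaccharide (LPS, a bacterial cell-wall component) or after 1 h or 4 h with 1 µg/ml LPS. The 15 libraries formed 6 groups by protein and LPS time. For GFP-TTP the unstimulated, 1 h and 4 h groups comprised 2, 4 and 2 libraries, and for GFP-TTP-AA 2, 3 and 2. Each list was a sum over the libraries of 1 group, so no spread between replicates could be measured, and every interval and p-value below covers counting error between pooled lists only.

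TTP is a zinc-finger protein that binds AU-rich elements, stretches with the pentamer AUUUA or the nonamer built around UAUUUAU, in the 3′UTRs of short-lived mRNAs, and recruits the enzymes that shorten the poly(A) tail. Many cytokine and chemokine mRNAs carry such elements, which let a macrophage end an inflammatory burst quickly. Phosphorylation by MK2 after LPS is known to weaken the destabilising activity of TTP, and TTP-AA cannot be phosphorylated at these serines.

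All 3 genes lie on the plus strand of chromosome 5 in mm10 and have 4 exons. Cxcl3 (ENSMUSG00000029379.10) spans chr5:90786103-90789600, Cxcl1 (ENSMUSG00000029380.11) spans chr5:90891241-90893115 and Cxcl2 (ENSMUSG00000058427.10) spans chr5:90903871-90905938. Their reference transcripts end in 3′UTRs of 592 nt for Cxcl1 (chr5:90892524-90893115), 734 nt for Cxcl2 (chr5:90905205-90905938) and 645 nt for Cxcl3 (chr5:90787449-90788093), each within exon 4. The pentamer occurs 7 times in the 3′UTR of Cxcl1, 11 times in that of Cxcl2 and 5 times in that of Cxcl3, and UAUUUAU, which contains the pentamer, occurs 6, 7 and 2 times. Per kb of 3′UTR this gives 11.8, 15.0 and 7.75 pentamers, against a median of 1.24 over 21045 genes, so that the 3 were above 97.6% to 99.6% of genes in pentamer density. The coding sequences of Cxcl2 and Cxcl3 were identical at 89.8% of aligned bases, whereas their 3′UTRs were identical at 63.2%. Between Cxcl1 and Cxcl2 these values were 78.7% and 63.0%.

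The places where the pentamers stand in Cxcl2 are shown as 30-nt windows centred on each pentamer or group of pentamers, since most of the signal described below fell around them. Capitals mark AUUUA, searched on the transcript strand, which 65.2% of all annotated 3′UTRs hold at least once and 4.71% of all 30-nt windows of 3′UTRs contain. Positions count from the base after the stop codon.
Cxcl2 nt 123-152 (chr5:90905327-90905356, plus strand): uAUUUAUUUAucuauguAUUUAUUUAUUUA
Cxcl2 nt 179-208 (chr5:90905383-90905412, plus strand): uguuuauuuugauAUUUAaagauaugcauu
Cxcl2 nt 280-309 (chr5:90905484-90905513, plus strand): uucaauuaaaguuAUUUAacuuauauaguu
Cxcl2 nt 321-350 (chr5:90905525-90905554, plus strand): aauuuuuaaaccuAUUUAuucauuaguuuc
Cxcl2 nt 508-537 (chr5:90905712-90905741, plus strand): uagaacagcuguuAUUUAgguuucaguguu
Cxcl2 nt 673-702 (chr5:90905877-90905906, plus strand): gaaguggacacAUUUAUUUAuucauguauu

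The last 30 nt of the Cxcl2 3′UTR follow, with the polyadenylation signal AAUAAA in capitals, because the few sites at 4 h lay there.
Cxcl2 nt 705-734 (chr5:90905909-90905938, plus strand): uacaaauaacaaaaAAUAAAaacgucuguu

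The densest pentamer group of Cxcl1, the first group of Cxcl3 and a single pentamer of each that lines up with nt 521 of Cxcl2 are given for comparison, as none of them carried a site.
Cxcl1 nt 83-112 (chr5:90892606-90892635, plus strand): guccuAUUUAUUUAuguAUUUAUUUAuucc
Cxcl1 nt 384-413 (chr5:90892907-90892936, plus strand): aagaaugucaguuAUUUAuugaaagucguc
Cxcl3 nt 188-217 (chr5:90787636-90787665, plus strand): gcaucuuAUUUAauguuuAUUUAauaucaa
Cxcl3 nt 418-447 (chr5:90787866-90787895, plus strand): auuaucaguuguuAUUUAuugaaauggucu

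Only Cxcl2 had crosslink sites among the 3 chemokines, in 4 of the 6 lists. Its 3′UTR held 4 cDNAs in the GFP-TTP list and 0 in the GFP-TTP-AA list at 0 h. After 1 h LPS it held 258 cDNAs at 140 sites with GFP-TTP and 2536 cDNAs at 299 sites with GFP-TTP-AA. After 4 h LPS it held 0 cDNAs with GFP-TTP and 8 with GFP-TTP-AA. By number of cDNAs the Cxcl2 signal was high in both 1 h lists and between 0 and 8 in the 4 others, which were shallower in 3′UTRs. In the GFP-TTP-AA list at 4 h, whose 3′UTRs held 1000 cDNAs in all, 8 cDNAs still placed Cxcl2 at rank 18 of 198 genes.

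Cxcl1 and Cxcl3 had 0 sites in each of the 6 lists, in any region, on either strand and within 1000 nt of either gene end. Each list holds only sites that passed a false-discovery threshold, so a count of 0 does not bound the cDNAs on these mRNAs, and whether sites were lost at that step or are missing from the lists was not tested. A ratio of GFP-TTP-AA to GFP-TTP could therefore not be compared between the 3 genes. None of the 563 possible 30-base stretches of the Cxcl1 3′UTR and none of the 616 of the Cxcl3 3′UTR occurred in a transcript of another gene. The levels of the 3 mRNAs in these cells were not measured by these files, so their part in the counts was not tested.

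**Figure D1:**
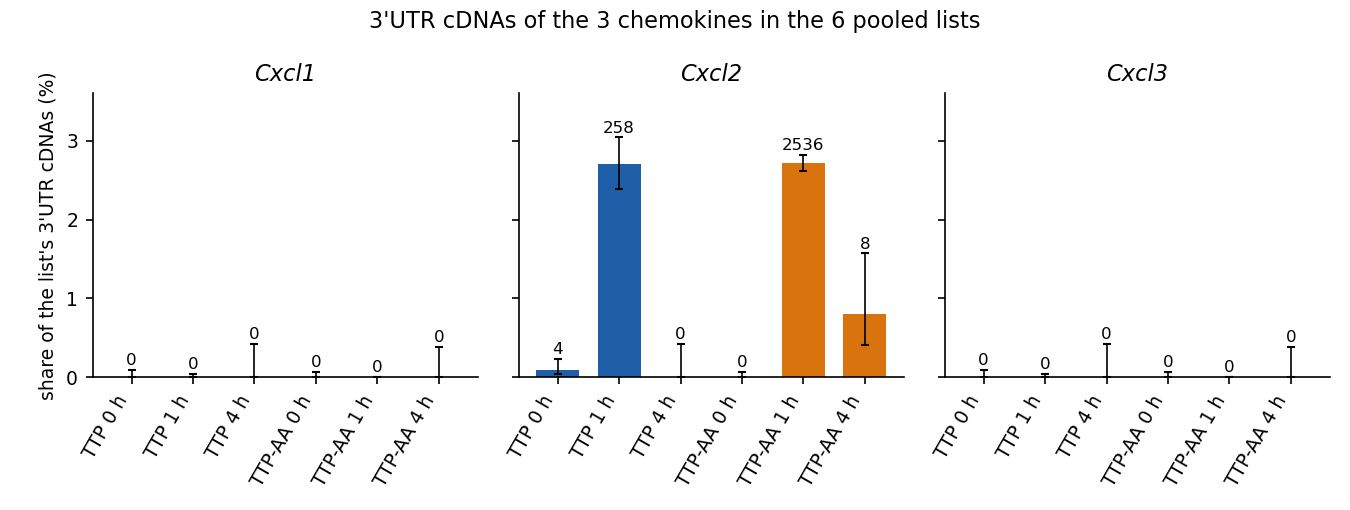
Share of each list's 3′UTR cDNAs that fell in the 3′UTR of Cxcl1, Cxcl2 or Cxcl3 (vertical axis, %), by list (horizontal axis), with Wilson 95% intervals as error bars and the number of cDNAs above each bar. Only Cxcl2 had cDNAs, with 258 (GFP-TTP) and 2536 (GFP-TTP-AA) at 1 h, both close to 2.7% of their list.

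Most short 3′UTRs rich in AU pentamers had no site in these lists, and neither had most annotated 3′UTRs of any kind. Among 83 genes whose longest 3′UTR was at most 1000 nt and had at least as many AUUUA and UAUUUAU as Cxcl3, 25 had a 3′UTR site in at least 1 list and 58, Cxcl1 and Cxcl3 among them, had none. The genes with a site made up 30.1% of this set and 23.2% of all genes with a 3′UTR. With at least as many of both motifs as Cxcl1, 6 genes remained, of which 2 had a site. Cxcl2 was in neither set, since its longest annotated 3′UTR is 1494 nt long.

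**Figure D2:**
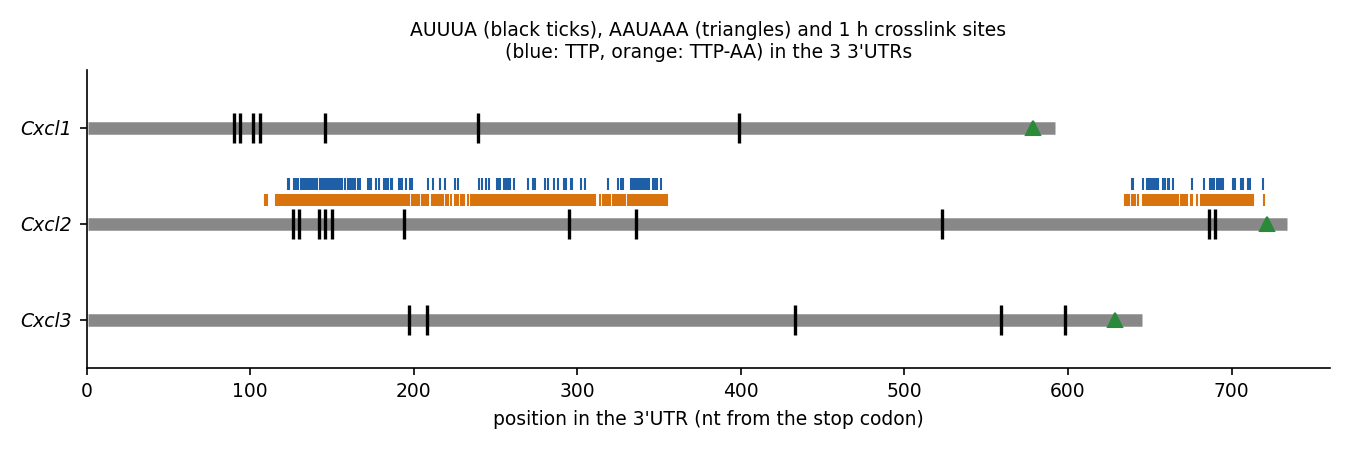
The 3′UTRs of Cxcl1, Cxcl2 and Cxcl3 drawn to scale (grey bars, position in nt from the stop codon on the horizontal axis), with AUUUA as black ticks, AAUAAA as triangles and, for 1 h LPS, the GFP-TTP sites as blue and the GFP-TTP-AA sites as orange marks. Sites are present only above Cxcl2, in nt 109 to 355 and nt 635 to 720, although Cxcl1 and Cxcl3 hold 7 and 5 pentamers.

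The question of the comparison between the proteins is whether the phosphorylation-site mutant contacts these mRNAs more than the wild type does. At 1 h the GFP-TTP-AA list held 9.83 times as many Cxcl2 3′UTR cDNAs as the GFP-TTP list (95% interval 8.64 to 11.2). The GFP-TTP-AA list also held 9.78 times as many cDNAs in all 3′UTRs together, 93510 against 9558. As a share of all 3′UTR cDNAs, Cxcl2 took 2.71% (2.61 to 2.82) with GFP-TTP-AA and 2.70% (2.39 to 3.04) with GFP-TTP. The difference was 0.0127 percentage points with an interval from -0.347 to 0.337 (Fisher's exact test, two-sided, Benjamini-Hochberg adjusted p = 1 over 2102 genes). In the same test 6.23% of genes were called in either direction.

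Relative to 3′UTR cDNAs, Cxcl2 was thus not distinguishable between the proteins at 1 h, but this depended on what it was measured against. Against all cDNAs of the list, whose total was 1.76 times larger for GFP-TTP-AA, the Cxcl2 share was 1.19 percentage points higher with GFP-TTP-AA (adjusted p = 5.8e-237, exact test). Measured in that way, 1792 of the 2102 genes were called in either direction, so the call is not particular to Cxcl2. With each site counted once the difference was -1.58 percentage points (adjusted p = 4.09e-34, exact test), and 106 genes were called in either direction. The 299 GFP-TTP-AA sites covered 40.7% of the 734 nt and held a mean of 8.48 cDNAs each, against 1.84 for the 140 GFP-TTP sites. The median log2 odds ratio of the 2102 genes was 1.23 and that of Cxcl2 was 0.00, higher than 32.9% of them. Many of these genes passed the minimum of 10 cDNAs through the GFP-TTP-AA list alone.

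Cxcl2 stood among the most crosslinked 3′UTRs in both 1 h lists. By cDNAs it was the 4th of 1306 genes with GFP-TTP and ranked 1 of 4510 genes with GFP-TTP-AA. Per kb of the longest annotated 3′UTR, which is 1494 nt long in Cxcl2 through a retained intron of transcript Cxcl2-202, it had 173 cDNAs with GFP-TTP and 1697 with GFP-TTP-AA, ranks 12 and 6. No site fell in the additional 760 nt of that transcript. Over the 734 nt of the reference 3′UTR, a length chosen after the data were seen, the densities were 351 and 3455 cDNAs per kb, ranks 5 and 1.

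At 0 h and 4 h too few cDNAs were present for a test with the minimum of 10. At 0 h the 4 cDNAs of GFP-TTP were 0.0916% of 4369 3′UTR cDNAs, and the GFP-TTP-AA list had 0 of 6008. At 4 h the 8 cDNAs of GFP-TTP-AA were 0.8% of 1000 (0.406 to 1.57), and the GFP-TTP list had 0 of 906. The higher list thus differed between these times, GFP-TTP at 0 h and GFP-TTP-AA at 4 h, by 4 and 8 cDNAs.

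Cxcl2 took a larger share of the 3′UTR cDNAs after 1 h LPS than at 0 h with both proteins. With GFP-TTP the share rose from 0.0916% (0.0356 to 0.235) to 2.70%, by 2.61 percentage points (2.27 to 2.96, Fisher's exact test, two-sided, adjusted p = 9.68e-35 over 277 genes). This is a 64.5-fold rise in cDNAs (24.9 to 239) and a 29.5-fold rise in share. In that comparison 23.8% of genes were called higher at 1 h. With GFP-TTP-AA the share rose from 0 of 6008 to 2.71% (adjusted p = 2.54e-67 over 2081 genes, Fisher's exact test), with no fold given because Cxcl2 was listed at 0 in the 0 h list. Here 3.03% of genes were called higher at 1 h.

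At 4 h Cxcl2 took a smaller share of the 3′UTR cDNAs than at 1 h with both proteins. With GFP-TTP the share fell by 2.70 percentage points to 0 (Fisher's exact test, two-sided, adjusted p = 6.72e-09 over 170 genes, with 5.88% of genes called lower at 4 h). With GFP-TTP-AA the share fell by 1.91 percentage points to 0.8% (interval of the difference -2.32 to -1.13, adjusted p = 0.00232 over 2009 genes, Fisher's exact test). In that comparison 2 genes, 0.0996%, were called lower at 4 h, Cxcl2 and Mdm2, an inhibitor of p53, the latter named after its values were seen. The 4 h lists held only 906 (GFP-TTP) and 1000 (GFP-TTP-AA) 3′UTR cDNAs. Only genes with a large share at 1 h could therefore be called lower, and these calls do not show a fall particular to Cxcl2. With each site counted once, the GFP-TTP-AA share was instead 0.0819 percentage points higher at 4 h (adjusted p = 1, Fisher's exact test). The headers of both 1 h lists carried a mark for the handling of regions in peak calling that the 4 other lists lacked, so LPS time and peak calling cannot be told apart in these comparisons.

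The change of the protein difference between times was measured as a difference of log2 odds ratios. It was 3.64 between 0 h and 1 h (95% interval -0.584 to 7.86) and 3.95 between 1 h and 4 h (-0.169 to 8.07), both with intervals that include 0. Between 0 h and 4 h it was 7.59 (1.70 to 13.5), higher at 4 h, where 6.85% of 292 genes had an interval above 0. That value rests on the 4 and 8 cDNAs given above, with 0 in the other list at each time. Each 0 comes from a filtered list and does not bound the cDNAs, which the interval leaves out of account.

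Within the Cxcl2 3′UTR the 1 h sites lay in a pair of stretches, an upstream one that holds 8 pentamers and one near the 3′ end that holds 2 more. Nt 109 to 355 held 195 of the 258 GFP-TTP cDNAs (75.6%, 70.0 to 80.4) and 2042 of the 2536 GFP-TTP-AA cDNAs (80.5%, 78.9 to 82.0). Nt 635 to 720 held the remaining 63 (24.4%, 19.6 to 30.01) and 494 (19.5%, 18.0 to 21.1). No site of either list fell in nt 1 to 108 or nt 356 to 634, or in the last 14 nt. GFP-TTP-AA had a site on 92.3% of the nucleotides of the upstream stretch and on 82.6% of those of the downstream one, and GFP-TTP on 43.3% and 38.4%.

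The stretches differed in base composition from the 2 longer segments without a site. A and U made up 77.7% of nt 109 to 355 and 72.1% of nt 635 to 720, against 45.4% of nt 1 to 108 and 55.6% of nt 356 to 634. The last of these segments nevertheless held the pentamer at nt 521, the only one of the 11 in Cxcl2 with no 1 h cDNA within 20 nt. G made up 28.7% of each of the 2 segments without a site before nt 635, and 13.4% and 13.95% of the stretches. The last 14 nt, also without a 1 h site, were like the stretches, with 71.4% A and U and 14.3% G.

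**Figure D3:**
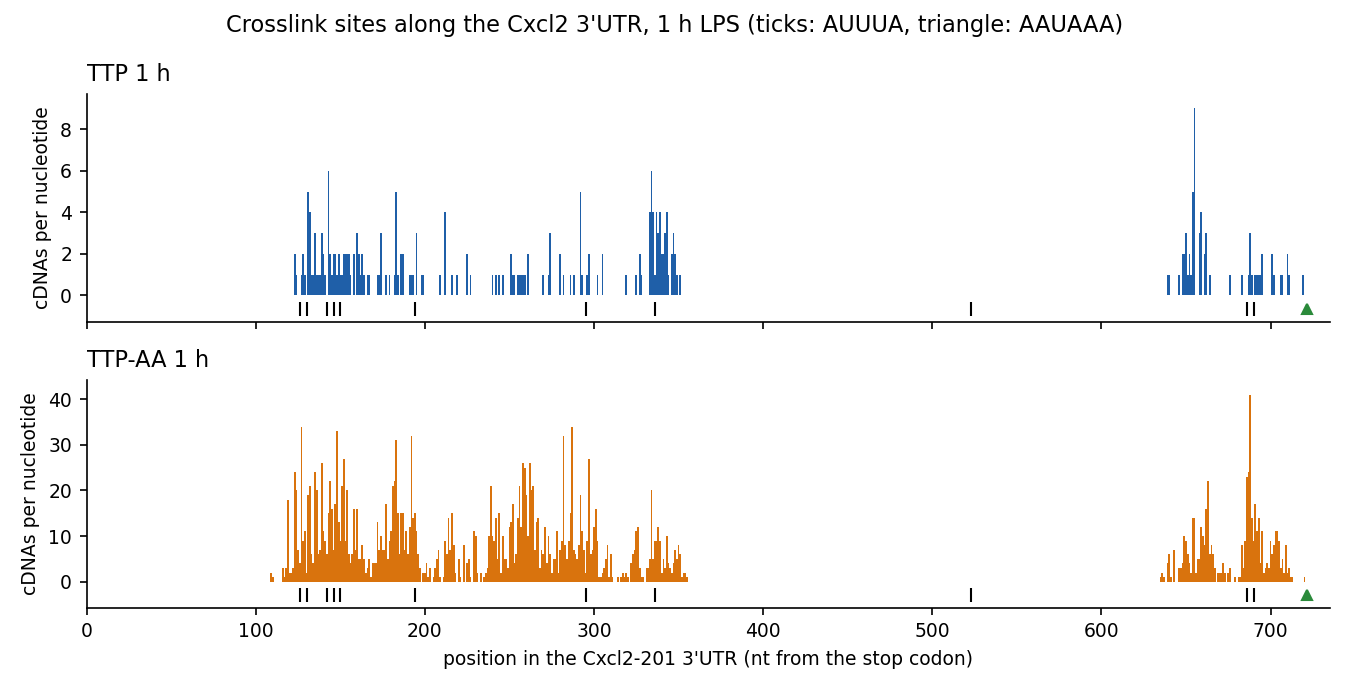
Number of cDNAs at each nucleotide of the Cxcl2 3′UTR (vertical axis, different scales) against the distance from the stop codon (horizontal axis, nt) for GFP-TTP (top) and GFP-TTP-AA (bottom) after 1 h LPS, with AUUUA as ticks and AAUAAA as a triangle. Sites reach 9 cDNAs with GFP-TTP and 41 with GFP-TTP-AA, and both profiles are empty from nt 356 to 634, around the pentamer at nt 521.

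Across the pentamer windows printed above, the window with 5 pentamers, an overlapping pair and an overlapping triple (nt 123-152), held the most cDNAs with GFP-TTP-AA, 450 at 30 of its 30 nt, and 50 with GFP-TTP. The window at nt 321-350 also held 50 cDNAs with GFP-TTP, but 173 with GFP-TTP-AA. The window at nt 179-208 held 20 and 290 cDNAs, that at nt 280-309 held 17 and 291, and that at nt 673-702 held 16 and 233. In the window at nt 508-537 both lists had 0. Windows without a pentamer were not compared, and cDNAs also lay between the printed windows. At nt 262, for example, GFP-TTP-AA had 26 cDNAs and GFP-TTP had 0, so the printed windows need not be the peaks of the profile. The group of 5 fills its window, and with 20 nt added on either side of the pentamers it held 71 cDNAs with GFP-TTP and 628 with GFP-TTP-AA, against 52 and 193 around the pentamer at nt 334.

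Around AUUUA as a whole, 70.9% of the GFP-TTP cDNAs (65.1 to 76.1) and 67.9% of the GFP-TTP-AA cDNAs (66.0 to 69.7) of Cxcl2 lay with a pentamer within 20 nt, as did 34.1% of the nucleotides of its 3′UTR. Over all 3′UTRs of the same lists 43.3% and 41.0% of cDNAs did, but the share of their nucleotides as near to a pentamer was not computed. The Cxcl2 3′UTR held 15.0 pentamers per kb, against a median of 1.24 over 21045 genes. Its higher shares therefore do not show a stronger focus on pentamers than elsewhere. Uridine was the crosslinked base for 61.6% and 58.0% of the Cxcl2 cDNAs, against 34.9% of its 3′UTR bases and 64.0% and 62.1% of cDNAs over all 3′UTRs. UV crosslinking is known to favour uridine, and its part in these shares was not tested.

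Since GFP-TTP-AA had a site on 92.3% and 82.6% of the nucleotides of the only stretches with GFP-TTP sites, most GFP-TTP sites would fall on a GFP-TTP-AA site wherever they lay. Of the 140 GFP-TTP sites 137 were GFP-TTP-AA sites at the same nucleotide (97.9%, 93.9 to 99.3), and the other 3, with 1 cDNA each, had one within 5 nt. The shared nucleotides were 45.8% of the 299 GFP-TTP-AA sites. Over the 302 nucleotides with a site in either list, the cDNAs per nucleotide had a Spearman correlation of 0.40, across nucleotides that are not independent and are mostly covered by few cDNAs with GFP-TTP, of whose sites 55.7% had a single cDNA.

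The strongest single positions differed between the lists. With GFP-TTP the highest was nt 655 with 9 cDNAs, a cytidine that carried 14 with GFP-TTP-AA, followed by nt 143 and nt 334 with 6 each. With GFP-TTP-AA the highest was nt 688, the first base of the last pentamer, with 41 cDNAs, where GFP-TTP had 3. It was followed by nt 127 and nt 287 with 34 each, where GFP-TTP had 1 and 0.

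Bins of 50 nt were compared over all 734 nt of the 3′UTR, and 3 of them had shares whose 95% intervals did not overlap between the proteins. These intervals treat cDNAs as independent, although cDNAs at 1 nucleotide share a site and are not. Nt 301 to 350 held 20.9% of the GFP-TTP cDNAs (54 cDNAs, 16.4 to 26.3) and 9.23% of the GFP-TTP-AA cDNAs (234 cDNAs, 8.16 to 10.4). Nt 251 to 300 held 11.6% (30 cDNAs, 8.27 to 16.1) and 23.1% (586 cDNAs, 21.5 to 24.8), and nt 201 to 250 held 5.43% (14 cDNAs, 3.26 to 8.90) and 10.4% (263 cDNAs, 9.24 to 11.6). The ratio of GFP-TTP-AA to GFP-TTP cDNAs was accordingly 4.33 (3.21 to 5.94) in nt 301 to 350 and 19.5 (13.5 to 29.2) in nt 251 to 300. These bins were singled out after their values were seen. With each site counted once, the difference of nt 301 to 350 (GFP-TTP-AA minus GFP-TTP) was -0.664 points in place of -11.7 and that of nt 251 to 300 was 2.44 in place of 11.5, whereas that of nt 201 to 250 was 6.90 in place of 4.94.

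**Figure D4:**
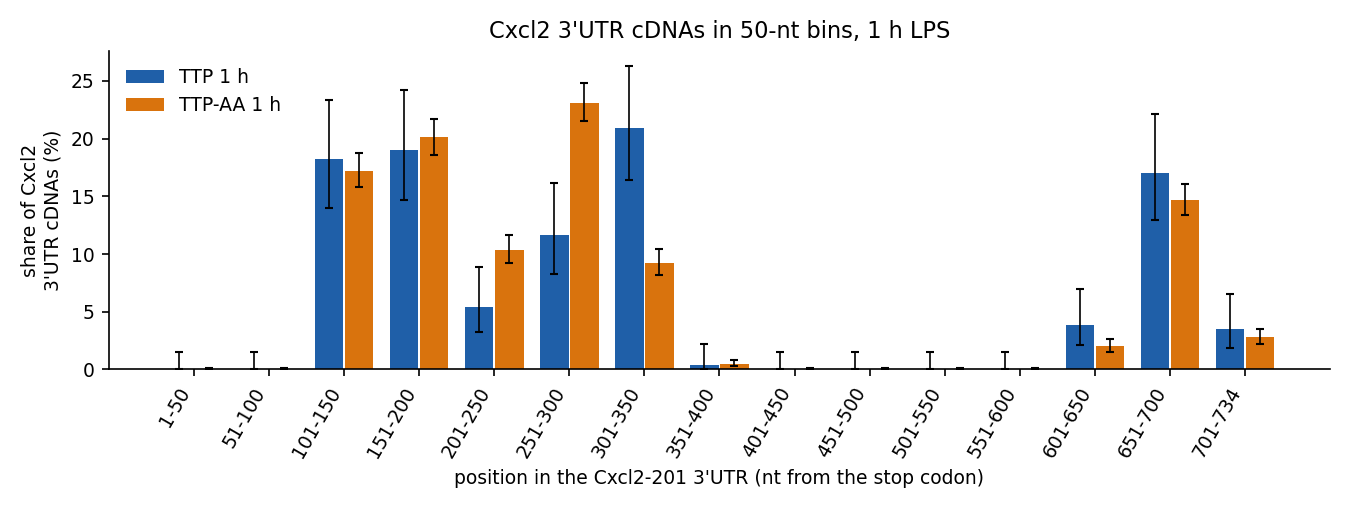
Share of the Cxcl2 3′UTR cDNAs (vertical axis, %) in 50-nt bins (horizontal axis, nt from the stop codon) for GFP-TTP (blue, 258 cDNAs) and GFP-TTP-AA (orange, 2536 cDNAs) after 1 h LPS, with Wilson 95% intervals. The intervals are apart in nt 201 to 250 and nt 251 to 300, where GFP-TTP-AA is higher, and in nt 301 to 350, where GFP-TTP is higher. An interval drawn at an empty bin does not bound its cDNAs, since the lists were filtered.

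The Cxcl2 cDNAs at 0 h and 4 h lay within small parts of the stretches seen at 1 h, apart from nt 721. The 4 GFP-TTP cDNAs at 0 h stood at nt 338, 340, 342 and 348, within the window at nt 321-350, and each of these nucleotides also carried cDNAs of both proteins at 1 h. The 8 GFP-TTP-AA cDNAs at 4 h stood at nt 708, 711, 713 and 721, of which the first 3 nucleotides also carried GFP-TTP-AA cDNAs at 1 h. All lay in the last 30 nt, the first 3 nucleotides upstream of the polyadenylation signal and nt 721 within it. That window held 2.33% of the GFP-TTP and 1.38% of the GFP-TTP-AA cDNAs at 1 h.

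Outside the 3′UTR, Cxcl2 sites were few and differed in place between the proteins at 1 h. GFP-TTP had 7 cDNAs at 5 sites in the 5′UTR in exon 1 (chr5:90903900-90903905), where GFP-TTP-AA had 0. GFP-TTP-AA had 8 cDNAs at 7 sites in the coding sequence in exon 2 (chr5:90904175-90904200), where GFP-TTP had 0. No list had a site in a Cxcl2 intron. The transcripts of Cxcl2 and Cxcl3 share 82 stretches of 30 bases, none of them in a 3′UTR and none beginning just after 1 of these sites.

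Among chemokines more widely, a list of 35 other chemokine, decoy and receptor genes was read in the same way. The 4 further genes of the neutrophil-attracting group and their locus, Cxcl5, Ppbp, Pf4 and Cxcl15, and the receptors Cxcr1, Cxcr2 and Ackr1 had 0 3′UTR cDNAs in every list. Of the 35 genes 7 could be tested at 1 h and 2 were called, against 6.23% of all genes. Cxcl10, an interferon-induced chemokine that attracts T cells, had a higher share with GFP-TTP-AA, 549 cDNAs (0.587%) against 13 (0.136%, Fisher's exact test, two-sided, adjusted p = 6.34e-09). Ccl3, a macrophage chemokine, had a higher share with GFP-TTP, 244 cDNAs (2.55%) against 938 (1.00%) with GFP-TTP-AA (adjusted p = 4.36e-30, Fisher's exact test). Ccl2, which attracts monocytes, had 81 and 913 cDNAs, Ccl4 67 and 886, Ccl7 11 and 118, Ccl9 13 and 113 and Ccl12 0 and 14 with GFP-TTP and GFP-TTP-AA, and none of these 5 passed the test. The median log2 odds ratio of the 7 was 0.20. That of all 2102 genes was 1.23, the value of a gene with 11 cDNAs with GFP-TTP-AA and 0 with GFP-TTP. Many of the 2102 genes reached the minimum for testing through the GFP-TTP-AA list alone. Their median is therefore no benchmark for the chemokines.

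**Figure D5:**
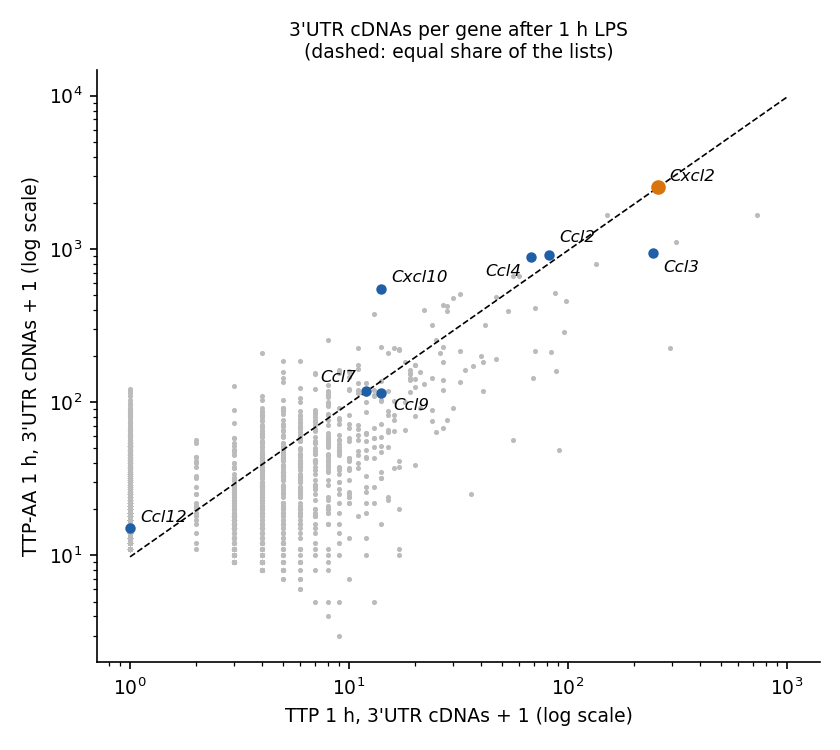
3′UTR cDNAs per gene plus 1 in the GFP-TTP list (horizontal axis, log scale) and the GFP-TTP-AA list (vertical axis, log scale) after 1 h LPS, for the 2102 genes tested (grey), with Cxcl2 (orange) and the 7 tested chemokines (blue) named. The dashed line marks equal shares of the 3′UTR cDNAs of both lists, on which Cxcl2 lies, with Cxcl10 above and Ccl3 below it.

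By its pattern over the 6 lists, Cxcl2 was most like Ccl2 (Pearson r = 0.98 of log2(CPM + 100), where CPM is the 3′UTR cDNA count scaled to a common list total, among 162 genes), followed by Cxcl10 (r = 0.92) and Icam1, an adhesion molecule to which neutrophils bind (r = 0.91). With GFP-TTP, Ccl2 had 2, 81 and 0 cDNAs over the course of LPS, and Icam1 had 0, 21 and 0. With GFP-TTP-AA they had 0, 913 and 10, and 0, 399 and 5. All points of these correlations share the same 6 lists, and depth differs between them. No such genes could be given for Cxcl1 and Cxcl3, whose values were 0 throughout.

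The lists held between 19167 and 174397 cDNAs, of which between 3.12% and 53.6% lay in 3′UTRs, the latter in the GFP-TTP-AA list at 1 h. Of 8 macrophage markers 7 had cDNAs on their own strand in any region of the gene, between 0 and 443 per list in sum. The defining markers of neutrophils (8 genes), T cells (4) and B cells (3) were at 0 in every list, and 1 of 4 fibroblast markers had 2 cDNAs in 1 list. These counts reflect contact with TTP as well as mRNA level, so an absence says nothing of the cell type's presence.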

How the data were processed

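The 6 lists of iCLIP crosslink sites each covered 1 group of GFP-TTP or GFP-TTP-AA macrophages. The value deposited for each site was a score, a whole number of unique cDNAs signed by strand. Per the methods, the authors removed PCR duplicates by random barcode bases, mapped unique reads to mm10 with Bowtie, pooled each group's libraries and retained sites below an FDR of 0.05 in iCount (15-nt windows, 100 permutations). Short random barcodes limit the cDNAs that can be counted at a site. Regions came from GENCODE M21, in the order 3′UTR, coding sequence, 5′UTR, non-coding exon, intron. Sites in 3′UTRs of 2 genes counted for both.

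Each gene with at least 10 3′UTR cDNAs over both lists was tested against the other 3′UTR cDNAs by Fisher's exact test (scipy 1.17.1, Benjamini-Hochberg over all genes, threshold 0.05), a script tested on simulated data. Shares have Wilson and differences Newcombe 95% intervals. Ratios of cDNAs have exact binomial ones. Log2 odds ratios had 0.5 added to each count and Wald intervals. No limit is given for a count of 0, since the lists were filtered. 3′UTRs were aligned globally in Biopython 1.88 with free end gaps. The members and gene lists were chosen with earlier results of these data known. Named were the members, chemokines with at least 10 3′UTR cDNAs at 1 h, and the 3 genes most alike in pattern among those with at least 100 cDNAs. Alternatives are given at the end.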

Additional observations from a re-analysis of the deposited data

Results flagged for a closer look

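The difference between GFP-TTP-AA and GFP-TTP on the Cxcl2 3′UTR changed between 0 h and 4 h by 7.59 on the scale of log2 odds ratios (95% interval 1.70 to 13.5). It was singled out because this interval excluded 0. The counts behind it were 4 cDNAs with GFP-TTP and 0 with GFP-TTP-AA at 0 h, and 0 and 8 at 4 h. The size depends on the 0.5 added to each count, and 2 of the 4 counts are 0. Each 0 comes from a filtered list and does not bound the cDNAs, so the interval cannot settle whether the difference changed.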

How the results depend on the processing

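No paired analysis was possible because each file is a sum over the libraries of a group and carries no replicate number, and for the same reason no library could be left out. The rise of the Cxcl2 share from 0 h to 1 h with either protein and its fall from 1 h to 4 h with GFP-TTP kept direction and call under all 7 alternatives (each site once, sites with at least 2 cDNAs, 2 wider totals, coding sequence before 3′UTR, minimum of 5 or 20 cDNAs), but not size. The rise ranged from 0.248 to 4.50 points with GFP-TTP and, from each site once to sites with at least 2 cDNAs, from 0.489 to 5.42 with GFP-TTP-AA, and the fall with GFP-TTP lay between -4.50 and -0.260. The fall with GFP-TTP-AA did so under 6. Counting each site once turned it to 0.0819 percentage points higher at 4 h, and turned the 1 h difference between proteins to -1.58 points. Against all cDNAs of the list that difference was 1.19 points, and 1.26 without the ribosomal RNA locus on chromosome 17, both past the threshold. At 4 h it was 0.8 points and passed the threshold with a minimum of 5 cDNAs (adjusted p = 0.0238 by Fisher's exact test). The change between 1 h and 4 h excluded 0 with each site once, at 4.90. Of the 7 tested chemokines 0 were higher with GFP-TTP-AA and 3 with GFP-TTP when each site counted once, and 7 and 0 against all cDNAs. Among all genes 106 were called in either direction with each site once. Against all cDNAs 1792 of the same 2102 genes were called, so the 7 calls there are not particular to chemokines. The share of Cxcl2 cDNAs near AUUUA was 51.6% within 10 nt and 99.2% within 50 nt for GFP-TTP, and 46.6%, 98.6% and, each site once, 65.2% for GFP-TTP-AA. All GFP-TTP sites (100%) were shared within 5 nt, within 15 nt or among sites with at least 2 cDNAs. The difference of nt 301 to 350 was -0.664 points with each site once and -17.2 points with sites of at least 2 cDNAs, alternatives chosen after seeing the data, as was the reference length for cDNAs per kb. The number of genes called at 1 h between the proteins was 131, from 62 with sites of at least 2 cDNAs to 1792 against all cDNAs. The counts for 1 h against 0 h ranged from 47 to 175 with GFP-TTP (131 as reported) and from 90 to 503 with GFP-TTP-AA (284), and those for 4 h against 1 h from 14 to 51 (34) and from 19 to 277 (62). The change from 0 h to 4 h could not be computed with each site once or with sites of at least 2 cDNAs, where fewer than 10 remained, and the count ratio between members could not be computed at all, since Cxcl1 and Cxcl3 were at 0. Depth limits the 4 h lists most, with 906 and 1000 cDNAs in 3′UTRs.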

Other observations

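A global alignment of the 3′UTRs placed 4 of the 11 AUUUA of Cxcl2 on an AUUUA of Cxcl1 and 1 on an AUUUA of Cxcl3. The pentamer at nt 521 of Cxcl2 was the only one lined up with a pentamer in both, at nt 397 of Cxcl1 and nt 431 of Cxcl3, and it was also the only pentamer of Cxcl2 without a 1 h cDNA within 20 nt. The alignment was made after the positions of the sites were known, and identity over the aligned bases of the 3′UTRs was 63.0% with Cxcl1 and 63.2% with Cxcl3.

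Of the 299 GFP-TTP-AA sites in the Cxcl2 3′UTR 96 had 10 or more cDNAs, whereas none of the 140 GFP-TTP sites had.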
